A study of Mus musculus with 6 samples.

Results

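The troponin complex was followed through its 8 subunit genes in cultured mouse satellite cells (SCs), the resident stem cells of skeletal muscle. The members are the rows of the expression table whose gene name is Tnnc1, Tnnc2, Tnni1, Tnni2, Tnni3, Tnnt1, Tnnt2 or Tnnt3, 8 of the 55416 genes listed, each present once. They were chosen by name and not by any measured value, though with earlier results of these data known. All 8 carry the cellular component term for the troponin complex in the table, and no other row does. RNA was sequenced from SCs of wild-type (WT) mice and of mice lacking lactoferrin (Ltf-KO), with 3 libraries in each group, and the comparison asks whether loss of Ltf altered the transcriptome of these cells. Ltf was deleted in the whole animal, by CRISPR-Cas9 in C57/BL6N zygotes, so every cell of an Ltf-KO mouse carried the deletion. In both groups the cells came from digested muscle, were sorted as Sca1-/CD11b-/CD34+/α7-integrin+ and were grown for 4 days on Matrigel. The sorted cells were collected in medium with fetal bovine serum, chick embryo extract and basic fibroblast growth factor. The medium for growth is not stated separately, and no further treatment is described for these cells. Mice were 8 to 10 weeks old unless stated otherwise. The labels give no age or sex for a library and no link between a library and a mouse, so p-values measure the spread between these libraries, which may be technical.

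Troponin sits along the actin thin filament with tropomyosin and makes contraction depend on calcium. Troponin C binds the calcium, troponin I holds back the interaction of actin with myosin, and troponin T anchors the complex to tropomyosin. Each subunit has paralogs that differ between fibre types: Tnnc1, Tnni1 and Tnnt1 are used in slow skeletal muscle and Tnnc2, Tnni2 and Tnnt3 in fast skeletal muscle, while Tnni3 and Tnnt2 are the cardiac troponins I and T, and Tnnc1 also serves the heart. Troponin genes are switched on as myoblasts leave the cell cycle and differentiate, and Tnnt2 is also used in developing skeletal muscle.

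In GENCODE M21 (GRCm38) the genes lie on chr14 (Tnnc1, 31208312 to 31211729, plus strand), chr2 (Tnnc2, 164777161 to 164779967, minus strand), chr1 (Tnni1, 135779434 to 135810989, and Tnnt2, 135836354 to 135852260, both plus strand) and chr7 (Tnnt1, 4504570 to 4516382, and Tnni3, 4518305 to 4524229, both minus strand, and Tnni2, 142441808 to 142444410, and Tnnt3, 142498836 to 142516009, both plus strand). The submitters' processing notes name the later build GRCm39 for the table, which holds no coordinates, and none were converted. A troponin I gene is followed by a troponin T gene in 3 places. Tnni3 and Tnnt1 lie 1922 bp apart with no gene between them, Tnni1 and Tnnt2 lie 25364 bp apart with Lad1 between them, and Tnni2 and Tnnt3 lie 54425 bp apart with Lsp1 between them. Some members share ground with another gene. Tnnc1 lies within Nisch over 3418 bp and Tnnc2 overlaps Ube2c, a ubiquitin-conjugating enzyme of mitosis, over 1662 bp, both on opposite strands. Tnnt3 overlaps Prr33 over 7936 bp on the opposite strand, and Tnni3 overlaps Dnaaf3 over 1297 bp on the same strand. Whether the counting used strand is not given in the sources used here, so reads in these stretches may belong to either gene. Nisch stood at 176 to 198 TPM and Ube2c at 240 to 272 TPM over the 6 libraries, Prr33 at 3.54 to 4.22 TPM and Dnaaf3 at 0.78 to 1.41 TPM.

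The promoters of 5 members are shown because they span the range of levels measured below, from the highest (Tnnc1) to the lowest (Tnni3), and include the neighbours Tnni3 and Tnnt1. RefSeq (GRCm38.p6) gave windows for 6 of the 8 members, 8 windows in all. Each sequence is the 250 bases before the annotated start, on the strand of the gene, at chr14:31208062-31208311 for Tnnc1, chr1:135836084-135836333 for the first of the 2 listed starts of Tnnt2, chr7:4515976-4516225 for Tnnt1, chr2:164779735-164779984 for Tnnc2 and chr7:4522529-4522778 for Tnni3. Capitals mark the E-box letters CANNTG, bound by myogenic factors such as MyoD and myogenin, the MCAT letters CATTCC, bound by TEAD factors, and the letters TATAAA, each searched on both strands, and marked matches do not overlap each other.
Tnnc1: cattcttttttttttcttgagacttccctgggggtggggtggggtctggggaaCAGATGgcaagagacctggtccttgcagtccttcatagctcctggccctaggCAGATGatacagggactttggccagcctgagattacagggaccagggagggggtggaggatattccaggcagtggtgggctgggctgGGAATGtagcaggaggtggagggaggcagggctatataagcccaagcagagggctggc
Tnnt2: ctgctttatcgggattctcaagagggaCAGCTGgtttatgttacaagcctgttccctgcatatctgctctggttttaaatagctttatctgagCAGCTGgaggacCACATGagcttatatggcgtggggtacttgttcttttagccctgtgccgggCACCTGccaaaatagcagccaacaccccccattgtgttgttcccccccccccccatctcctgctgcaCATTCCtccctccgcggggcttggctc
Tnnt1: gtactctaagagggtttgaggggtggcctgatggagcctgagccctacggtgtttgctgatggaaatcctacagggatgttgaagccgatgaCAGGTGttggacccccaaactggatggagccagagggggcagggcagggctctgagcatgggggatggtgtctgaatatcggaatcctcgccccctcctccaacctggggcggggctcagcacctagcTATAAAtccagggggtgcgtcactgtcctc
Tnnc2: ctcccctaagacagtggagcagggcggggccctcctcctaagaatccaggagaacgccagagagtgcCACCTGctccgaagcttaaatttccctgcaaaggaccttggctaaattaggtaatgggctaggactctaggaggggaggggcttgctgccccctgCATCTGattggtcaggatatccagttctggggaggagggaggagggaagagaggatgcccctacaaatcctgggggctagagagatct
Tnni3: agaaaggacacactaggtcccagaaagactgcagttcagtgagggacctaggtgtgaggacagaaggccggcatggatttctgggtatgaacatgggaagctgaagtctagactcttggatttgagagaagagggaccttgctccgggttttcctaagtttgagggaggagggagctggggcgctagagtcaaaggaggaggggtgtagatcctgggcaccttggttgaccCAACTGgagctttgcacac
The Tnnt2 window held 4 E-boxes, those of Tnnc1 and Tnnc2 held 2 each, and those of Tnnt1 and Tnni3 held 1 each. An E-box is a common match, present in 66.2% of all 32851 windows of this length. The MCAT letters stood once in Tnnc1, as the reverse complement GGAATG, and once in Tnnt2, against 12.6% of all windows. The letters TATAAA stood once in Tnnt1, against 12.4% of all windows. The palindromic element of the MEF2 factors matched none of the 8 member windows and 0.508% of all windows. These matches describe the letters and not the use of a site. RefSeq starts differ from the outer gene bounds of GENCODE given above. The windows of Tnni3 and Tnnt1 lie within those bounds, and that of Tnnc2 does for the most part, so their letters may be transcribed.

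Of the 8 genes, 7 were well expressed and 1 was near the floor. The unit of the table, TPM, scales transcript counts to a fixed sum per library and corrects for transcript length, so levels can be set side by side between genes, and all levels below are TPM. Tnnc1 had the highest mean over the 6 libraries at 462 ± 83.1 (SD, n = 6), followed by Tnnt2 at 371 ± 32.5, Tnnt1 at 274 ± 49.3, Tnni1 at 216 ± 31.8, Tnnt3 at 215 ± 47.4, Tnnc2 at 117 ± 28.8 and Tnni2 at 49.3 ± 12.1, and Tnni3 was last at 0.605 ± 0.297. The order was the same in 6 of 6 libraries for each pair of neighbours but one: Tnni1 stood above Tnnt3 in 3 libraries and below it in the other 3. The ranges over libraries overlapped between neighbours from Tnnc1 down to Tnnc2, and did not overlap between Tnnc2 and Tnni2 or between Tnni2 and Tnni3. Among the 12956 genes tested, Tnnc1 ranked 299 by mean TPM, Tnnt2 372 and Tnni2, the lowest of the 7, 2798.

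**Figure D1:**
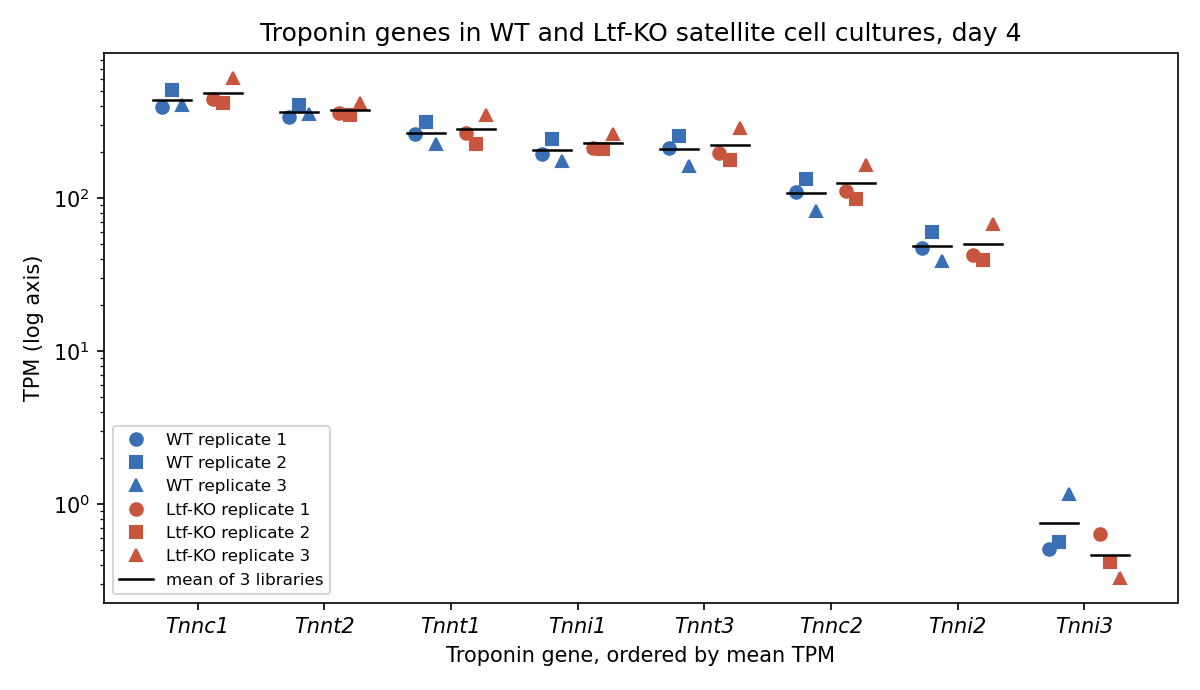
TPM (log axis) of the 8 troponin genes, ordered by mean, in the 3 WT (blue) and 3 Ltf-KO (red) libraries, with a bar at each group mean. The groups overlap for every gene, WT replicate 2 and Ltf-KO replicate 3 are the highest points of their groups for 7 genes, and Tnni3 lies near 1 TPM or below.

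Troponin C, the calcium sensor, came mostly from the slow and cardiac gene. Tnnc1 stood at 392, 510 and 406 TPM in WT replicates 1 to 3 and at 441, 415 and 609 TPM in Ltf-KO replicates 1 to 3. WT replicate 2 and Ltf-KO replicate 3 were the highest libraries, and the groups overlapped. The fast gene Tnnc2 stood at 109, 133 and 82.7 TPM in WT and at 112, 98.1 and 165 TPM in Ltf-KO. Its highest and lowest libraries differed 1.99-fold, the widest of the 7 expressed members, with Ltf-KO replicate 3 at the top and WT replicate 3 at the bottom. Tnnc1 made up 80.2% ± 2.55 of troponin C in WT and 79.8% ± 1.08 in Ltf-KO (SD, n = 3 each; two-sided exact permutation p = 0.9).

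Troponin I, the inhibitory subunit, was the least abundant of the 3 and came mostly from the slow gene. Tnni1 stood at 194, 245 and 175 TPM in WT and at 212, 209 and 261 TPM in Ltf-KO. The fast gene Tnni2 stood at 46.9, 60.2 and 39.0 TPM in WT and at 42.1, 39.3 and 68.1 TPM in Ltf-KO. In both genes Ltf-KO replicate 3 was highest and WT replicate 3 lowest. The cardiac gene Tnni3 stood at 0.51, 0.56 and 1.17 TPM in WT and at 0.64, 0.42 and 0.33 TPM in Ltf-KO, and never exceeded 0.545% of troponin I. The order of its libraries was not that of the other members, since WT replicate 3 was highest and Ltf-KO replicate 3 lowest. With a mean under 1 TPM it was not tested. Its neighbour Tnnt1 was 192 to 1060 times higher in the same library, although the genes lie 1922 bp apart. Tnni1 made up 80.6% ± 0.628 of troponin I in WT and 82.1% ± 2.57 in Ltf-KO (SD, n = 3 each; two-sided exact permutation p = 0.4).

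Troponin T, the tropomyosin-binding subunit, was spread over all 3 of its genes. Tnnt2, the cardiac and developmental gene, was the most abundant of them and stood at 340, 404 and 355 TPM in WT and at 359, 349 and 420 TPM in Ltf-KO. It was also the steadiest of the 7 expressed members, with a 1.24-fold range over the libraries. The slow gene Tnnt1 stood at 264, 313 and 225 TPM in WT and at 265, 227 and 350 TPM in Ltf-KO. The fast gene Tnnt3 stood at 213, 254 and 162 TPM in WT and at 198, 177 and 287 TPM in Ltf-KO. Both had Ltf-KO replicate 3 at the top and WT replicate 3 at the bottom, and their groups overlapped. Over the 6 libraries Tnnt2 gave 43.5% of troponin T, Tnnt1 31.7% and Tnnt3 24.8%. The Tnnt2 share was 43.7% ± 3.63 in WT and 43.3% ± 3.35 in Ltf-KO (SD, n = 3 each; two-sided exact permutation p = 1).

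**Figure D2:**
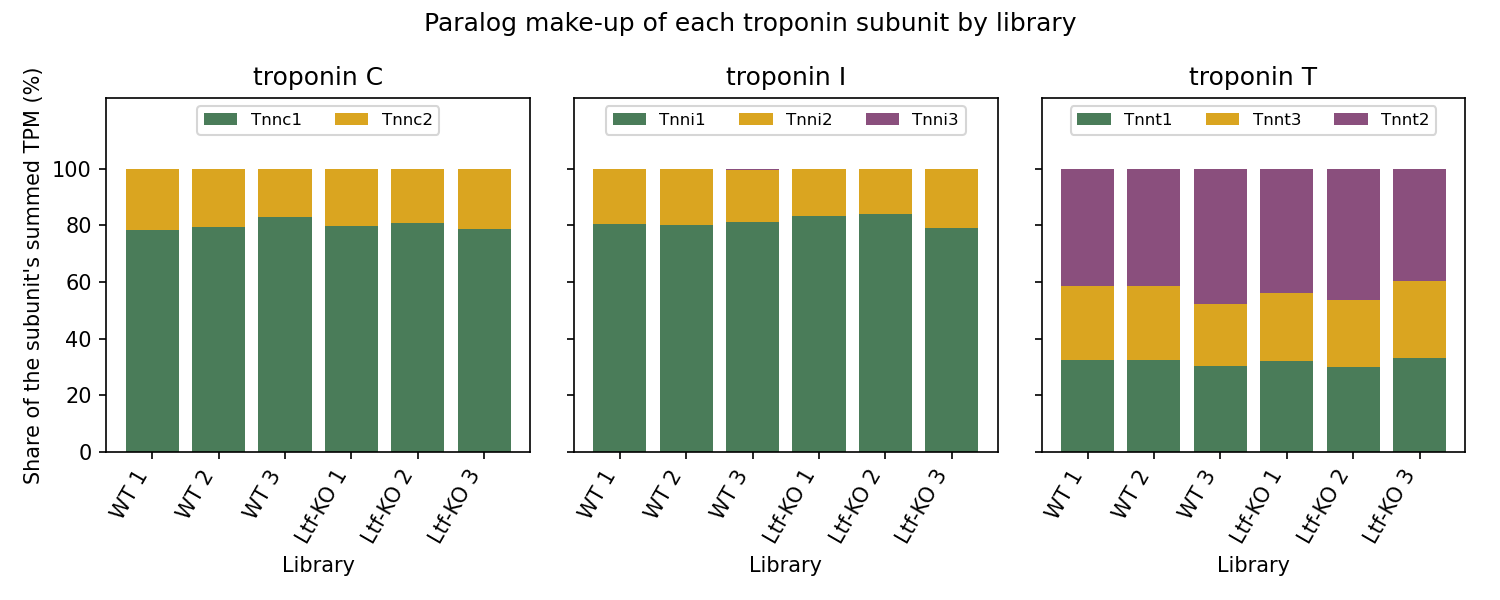
Share of each subunit's summed TPM given by its paralogs, in percent, for each of the 6 libraries. Tnnc1 gives 78.2% to 83.1% of troponin C and Tnni1 79.2% to 84.0% of troponin I, while Tnnt2 gives 39.7% to 47.9% of troponin T.

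The fast paralog was the lower member of each slow and fast pair in every library, by an unequal margin. Tnnc2 stood at 0.204 to 0.279 of Tnnc1 and Tnni2 at 0.189 to 0.261 of Tnni1, whereas Tnnt3 reached 0.720 to 0.820 of Tnnt1. The fast genes together gave 30.3%, 29.5% and 26.1% of the skeletal troponin TPM (all members but Tnni3 and Tnnt2) in WT and 27.7%, 27.0% and 29.9% in Ltf-KO. The means were 28.6% ± 2.25 and 28.2% ± 1.50 (SD, n = 3 each), and the groups overlapped (two-sided exact permutation p = 0.9).

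Summed over the 8 genes, troponin reached 1559, 1920 and 1445 TPM in WT and 1630, 1514 and 2159 TPM in Ltf-KO. The Ltf-KO mean of 1768 ± 343 was 1.08 times the WT mean of 1641 ± 248 (SD, n = 3 each), a difference of 126 TPM, within the spread of either group (two-sided exact permutation p = 0.6). Without Ltf-KO replicate 3 the difference turned to -69.2 TPM. This total and the 4 shares above formed 1 family of 5 tests, in which every adjusted p was 1, and with 3 libraries against 3 no exact p can fall below 0.1.

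The transcripts of the 3 subunits were not level with each other, although the complex holds 1 of each. Troponin T gave 50.6% of the total over the 6 libraries, troponin C 33.8% and troponin I 15.6%. Troponin T exceeded troponin I by 3.03 to 3.45 times and troponin C exceeded troponin I by 2.07 to 2.35 times. The troponin T share was 52.3%, 50.6% and 51.3% in WT and 50.4%, 49.7% and 48.9% in Ltf-KO, and the troponin C share was 32.1%, 33.5% and 33.8% in WT and 33.9%, 33.9% and 35.8% in Ltf-KO. Neither set of shares overlapped between the groups, and the means differed by -1.73 percentage points for troponin T and 1.39 for troponin C. The nearest libraries were close, at 50.6% in WT and 50.4% in Ltf-KO for troponin T. For troponin C they stood at 33.8% in WT and 33.9% in Ltf-KO. Since the 3 shares make up the total, these differences are not independent. The 3 subunit shares were compared after their values had been seen, and the exact permutation p of 0.1 for troponin T and for troponin C, 0.15 once adjusted over the 3 shares, is the smallest that the design allows before adjustment. The troponin I share, 15.4% ± 0.527 in WT and 15.8% ± 0.588 in Ltf-KO, overlapped (SD, n = 3 each; exact permutation p = 0.5).

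None of the 7 tested troponin genes differed between Ltf-KO and WT SCs by limma on log2(TPM + 1), where fold changes understate those of low genes. Tnnc2 had the largest log2 fold change, 0.19 (SE 0.235, 95% confidence interval -0.37 to 0.76, unadjusted p = 0.439). Tnni1 followed with 0.16 (SE 0.140, interval -0.18 to 0.49, unadjusted p = 0.302), which was the lowest p of the 7, and all 3 Ltf-KO libraries lay above the WT mean. Tnnc1 gave 0.15 (SE 0.165, interval -0.24 to 0.55), Tnnt3 0.067 (SE 0.222, interval -0.47 to 0.60) and Tnnt1 0.058 (SE 0.181, interval -0.38 to 0.49). The narrowest interval belonged to Tnnt2, at 0.038 (SE 0.0904, interval -0.18 to 0.25), and the smallest fold change to Tnni2, at 0.011 (SE 0.239, interval -0.56 to 0.59). True log2 changes anywhere from -0.18 to 0.25 for Tnnt2, and from -0.37 to 0.76 for Tnnc2, lie within these intervals. Neither a change of such a size nor none can be excluded in these libraries. Adjusted p was 0.999 for each of the 7, and 0 of 7 passed an unadjusted p of 0.05, against 490 of all 12956 genes tested, or 3.78%, of which 2.01% were higher and 1.78% lower in Ltf-KO. In the same limma test 0 genes of the table, 0%, passed an adjusted p of 0.05. The libraries of the 2 genotypes overlapped for all 8 members, whereas they did not overlap for 1096 genes tested, or 8.46%.

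**Figure D3:**
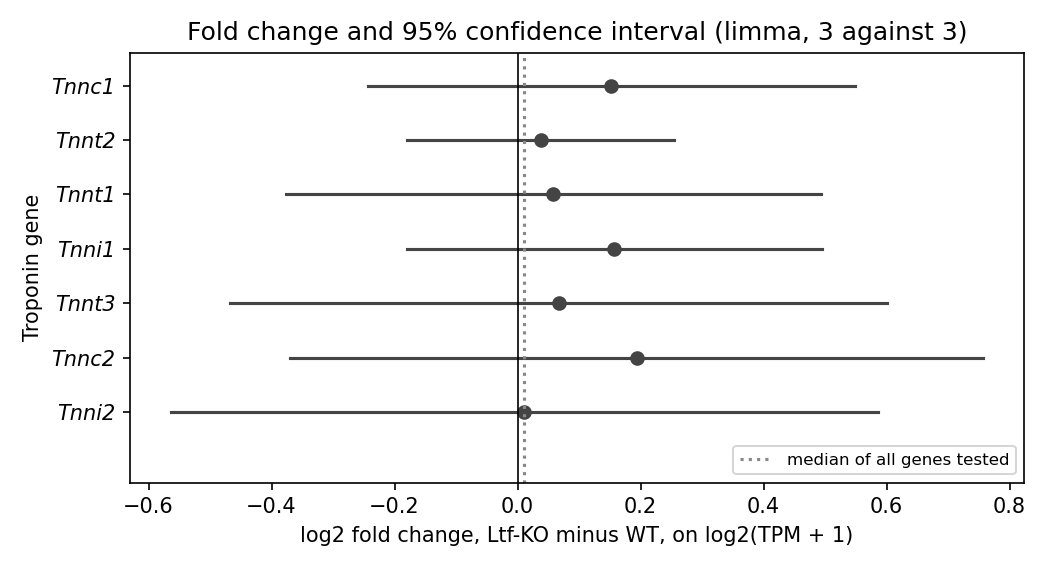
Log2 fold change of Ltf-KO over WT on log2(TPM + 1) for the 7 tested troponin genes (points) with 95% confidence intervals (lines), from limma over 3 against 3 libraries. Every interval holds 0, and the points lie between 0.011 and 0.19, beside a median of 0.011 over all genes tested (dotted line).

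The fold changes of the 7 were all above 0, with a median of 0.067, where 55.7% of all tested genes were above 0 and their median was 0.011. This direction changed with the libraries included. Without Ltf-KO replicate 3 the median was -0.043, and 6 of the 7 genes were below 0, the exception being Tnni1 at 0.051. Without WT replicate 3 Tnni2 was at -0.14, Tnnt3 at -0.11 and Tnnt1 at -0.060, and without WT replicate 1 Tnnt2 was at -0.014 and Tnni2 at -0.0045. When WT replicate 2 was left out, limma gave Tnni1, and no other troponin gene, a p under 0.05 before adjustment, at a log2 fold change of 0.29, and an adjusted p of 1. Ltf itself could not serve as a check of genotype, since it stood at 0.12, 0.02 and 0.02 TPM in WT and at 0.02, 0.03 and 0 TPM in Ltf-KO.

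For each of the 8 members the range of libraries within a genotype was wider than the difference between the genotype means. WT replicate 2 and Ltf-KO replicate 3 were the 2 highest libraries for each of the 7 expressed troponin genes. This arrangement was found in 1141 of all genes tested, or 8.81%. The pair was picked after the troponin values were seen, so this share is a background and no test of the members. WT replicate 3 was the lowest library for 5 of the 8 members (Tnnc2, Tnni1, Tnni2, Tnnt1 and Tnnt3), WT replicate 1 for Tnnc1 and Tnnt2, and Ltf-KO replicate 3 for Tnni3. The spread over the 6 libraries, as the SD of log2(TPM + 1), was largest for the fast genes, at 0.343 for Tnnc2, 0.331 for Tnni2 and 0.311 for Tnnt3. The slow genes had 0.253 for Tnnt1, 0.243 for Tnnc1 and 0.211 for Tnni1, and Tnnt2 had 0.123. Over the 8072 genes averaging 10 TPM or more the median of this SD was 0.0809 and its 90th percentile 0.181, and 6 of the 7 members, Tnnt2 being the exception, lay above that percentile. Ltf-KO replicate 3 lay 0.53 in log2 above the 6-library mean for Tnnc2 and 0.18 above it for Tnnt2.

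**Figure D4:**
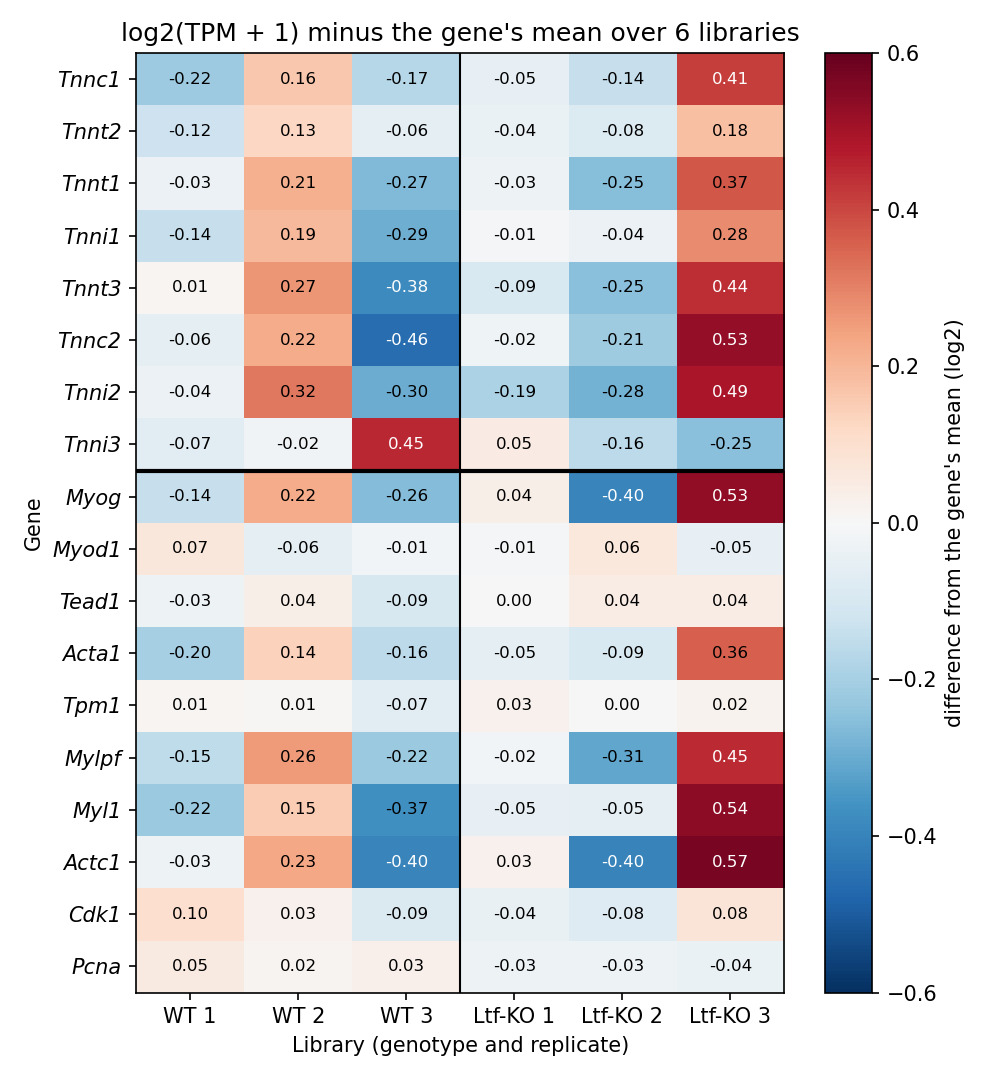
Difference of log2(TPM + 1) in each library from the gene's mean over 6 libraries (colour and printed number), for the 8 troponin genes above the line and 10 muscle and cell cycle genes below it. The columns of WT replicate 2 and Ltf-KO replicate 3 are above 0 for 7 troponin genes and for Myog, Acta1, Mylpf, Myl1 and Actc1. They are also above 0, by less, for Tead1, Tpm1 and Cdk1. Myod1, which varies by little, is below 0 in both, and Pcna is below 0 in Ltf-KO replicate 3.

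The genes whose profile over the 6 libraries lay closest to that of total troponin were Mybph, Myom3, Igf2, Tmem182 and Hspb8. Closeness was the root mean square difference of the centred log2 values, 0.0335 for Mybph and 0.0451 for Hspb8, with a median of 0.22 over 8065 genes compared. Mybph, a myosin-binding protein of the sarcomere, stood at 58.5, 71.1 and 53.3 TPM in WT and at 64.6, 57.7 and 82.4 TPM in Ltf-KO. Myom3, an M-band protein, stood at 22.9, 29.1 and 20.0 TPM in WT and at 23.4, 22.4 and 30.8 TPM in Ltf-KO. Igf2, a growth factor, stood at 549, 644 and 490 TPM in WT and at 556, 488 and 726 TPM in Ltf-KO. Tmem182, a muscle membrane protein, stayed between 11.4 and 16.2 TPM, and Hspb8, a small heat shock protein, between 99.4 and 151 TPM. Each of the 5 had its highest values in WT replicate 2 and Ltf-KO replicate 3, and their groups overlapped. Both traits belong to total troponin and so follow from how the 5 were chosen. Of these 5 genes, 2 remained among the nearest 5 without Ltf-KO replicate 1, 3 without Ltf-KO replicate 2 and 2 without Ltf-KO replicate 3.

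No partner of troponin on the thin filament was called either. The median log2 fold change of the 13 tested, of 14 genes listed, was 0.12. Of these 13 genes 0 passed an unadjusted p of 0.05, beside 3.78% of all genes tested. At that share a list of this size, like those below, would hold few or none. Tpm1, a tropomyosin to which troponin T binds, was high and steady at 1539 to 1643 TPM. Acta1, skeletal muscle actin, stood at 844, 1065 and 868 TPM in WT and at 933, 909 and 1243 TPM in Ltf-KO. Neb, the nebulin that runs along the thin filament, stood at 83.8 to 108 TPM. WT replicate 2 and Ltf-KO replicate 3 were the 2 highest libraries for 7 of the 13 genes, Acta1 among them but not Tpm1. Over all genes tested this held for 8.81%, and the pair was picked from the troponin values.

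Genes of fast, slow and developing fibres were also called in none of their tests. In the fast fibre list 0 of 6 tested genes passed an unadjusted p of 0.05 (median log2 fold change 0.14), in the slow fibre list 0 of 7 (0.13) and in the developmental list 0 of 7 (0.13). The share over all genes tested was 3.78%. The fast light chain Mylpf stood at 921, 1222 and 875 TPM in WT and at 1011, 822 and 1396 TPM in Ltf-KO, and Myl1, another fast light chain, at 182 to 343 TPM. Among slow fibre genes Atp2a2, the slow calcium pump of the sarcoplasmic reticulum, kept to 171 to 182 TPM and Fhl1, a LIM domain protein, to 77.9 to 98.2 TPM. Of the developmental genes, the cardiac actin Actc1 ranged from 258 to 506 TPM and the embryonic light chain Myl4 from 184 to 306 TPM. Chrna1, a subunit of the acetylcholine receptor, stayed within 508 to 526 TPM. WT replicate 2 and Ltf-KO replicate 3 were the 2 highest libraries for 6 of 6 tested fast, 3 of 7 slow and 5 of 7 developmental genes. Over all genes tested this held for 8.81%.

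Regulators of myogenesis differed in whether they followed the troponins from library to library. Myog, the myogenin that drives differentiation, stood at 319, 410 and 293 TPM in WT and at 360, 266 and 508 TPM in Ltf-KO. Its highest libraries were those of the troponins, and its groups overlapped. Myod1, expressed in dividing as well as differentiating myoblasts, stood at 816, 748 and 771 TPM in WT and at 775, 812 and 753 TPM in Ltf-KO, with WT replicate 2 the lowest. Tead1, a factor that binds MCAT letters, stood at 43.7 to 48.2 TPM. Of the 15 regulators 0 passed an unadjusted p of 0.05, beside 3.78% of all genes tested. Their median log2 fold change was 0.060. WT replicate 2 and Ltf-KO replicate 3 were highest for 7, beside 8.81% of all genes tested.

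The genes that deliver calcium to troponin had a median log2 fold change of 0.12. Of the 10 tested 0 had an unadjusted p under 0.05, beside 3.78% of all genes tested. Jph2, a junction protein between surface membrane and sarcoplasmic reticulum, stood at 115 to 134 TPM. Cacna1s, the voltage sensor of skeletal muscle, was low at 4.74, 5.99 and 3.84 TPM in WT and at 5.56, 5.31 and 7.79 TPM in Ltf-KO. WT replicate 2 and Ltf-KO replicate 3 were highest for 7 of the 10, beside 8.81% of all genes tested. Of the 8 proliferation genes 0 passed an unadjusted p of 0.05, beside the same 3.78%. Their median log2 fold change was -0.026. WT replicate 2 and Ltf-KO replicate 3 were highest for 0, beside 8.81% of all genes tested. Cdk1, the mitotic kinase, stood at 333 to 379 TPM, and Pcna, the replication clamp, stood at 308, 300.0 and 303 TPM in WT and at 291, 291 and 289 TPM in Ltf-KO. The groups did not overlap for 2 of the 8 genes, Pcna and Mcm2, a replication helicase subunit singled out after its values were seen (70.1 to 73.9 TPM in WT and 67.3 to 69.4 TPM in Ltf-KO), beside 8.46% of all genes tested. By limma Pcna had an adjusted p of 0.999, and before adjustment it missed the threshold of 0.05 but passed it with no filter, median-of-ratios scaling or quantile normalization.

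Markers of the labelled cell type were present: those of satellite cells and myoblasts, Myod1 among them, summed to 1994 to 2096 TPM over the 6 libraries. The heart uses Tnni3, Tnnt2 and Tnnc1, and markers of cardiomyocytes were near the floor: the 8 genes summed to 0.59 to 1.45 TPM in WT and 0.62 to 1.66 TPM in Ltf-KO, 7 of them were below 1 TPM in every library, and Mybpc3 was listed at 0 in 5 of the 6. Markers of endothelial cells summed to 7.36, 5.68 and 14.2 TPM in WT and to 11.5, 13.3 and 5.68 TPM in Ltf-KO, so that the libraries highest in troponin were lowest here. The exception among the endothelial genes was Kdr, lowest in Ltf-KO replicate 1. Markers of Schwann cells summed to 13.0, 17.3 and 24.8 TPM in WT and to 18.8, 22.1 and 14.6 TPM in Ltf-KO. Here WT replicate 3, low in troponin, was at the top and WT replicate 1 at the bottom. The fibroblast list summed to 103 to 108 TPM in WT and 102 to 134 TPM in Ltf-KO, the macrophage list to 4.46 to 11.5 TPM and 3.59 to 4.69 TPM, and the erythroid list to 17.6 to 22.5 TPM over all libraries. The smooth muscle list summed to 967 to 1095 TPM in WT and 1040 to 1207 TPM in Ltf-KO, but holds Des and Acta2, which myoblasts also express. Unlike the endothelial sum, the fibroblast and smooth muscle sums were the highest of WT in WT replicate 2. Most of the fibroblast sum came from Col3a1, at 88.0 to 96.6 TPM in WT. Ly6a was also highest of WT in WT replicate 2. Pdgfra, Col1a1, Dcn and Lum were instead highest of WT in WT replicate 3, as was the endothelial sum. These fibroblast genes were singled out after their values were seen. In Ltf-KO replicate 3 the smooth muscle sum was the highest of all libraries and the fibroblast sum the lowest. Of the 32 genes tested in these marker lists, 2 passed an unadjusted p of 0.05, beside 3.78% of all genes tested, both of the smooth muscle list and higher in Ltf-KO: Tagln, at 59.5 to 60.8 TPM in WT and 66.0 to 83.8 TPM in Ltf-KO, and Pdgfrb, at 3.73 to 4.71 TPM in WT and 4.80 to 7.51 TPM in Ltf-KO. They were singled out after their values were seen, and their adjusted p by limma was 0.999. Pdgfrb no longer passed the unadjusted threshold without WT replicate 1, WT replicate 2, Ltf-KO replicate 1 or Ltf-KO replicate 2, nor Tagln without WT replicate 1, 2 or 3. The part of these cells in the library differences was not tested, and in bulk RNA fewer cells of a type and less RNA per cell cannot be told apart.

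**Figure D5:**
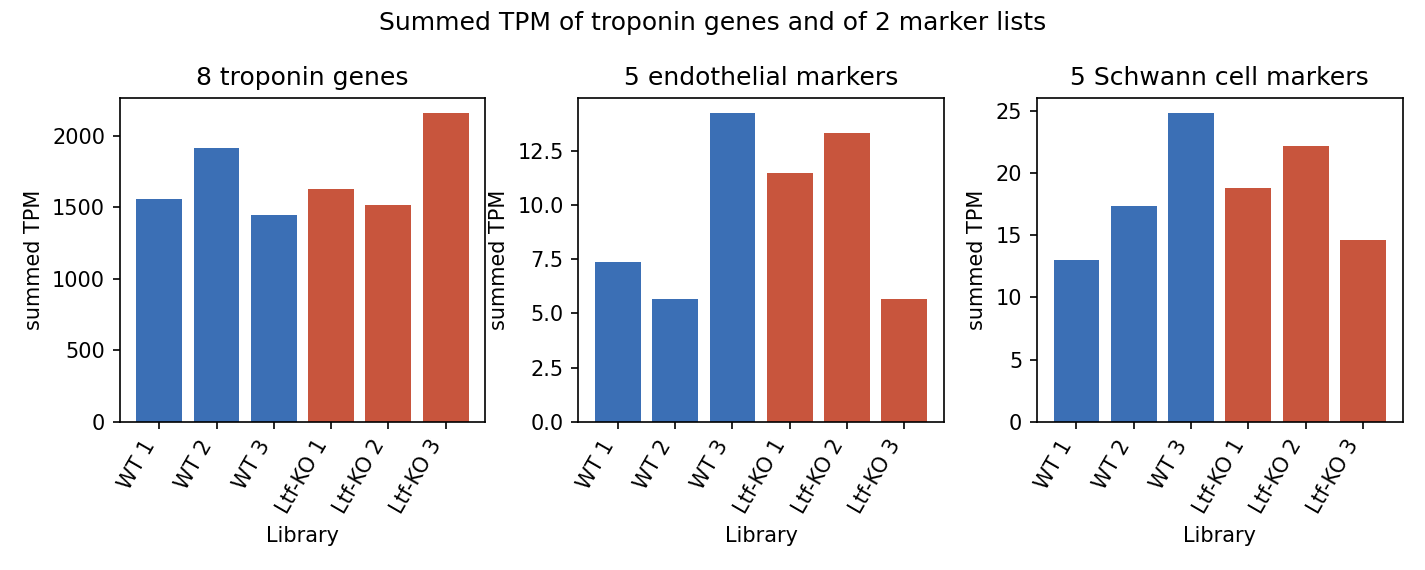
Summed TPM of the 8 troponin genes, 5 endothelial markers and 5 Schwann cell markers in each library (bars from 0, WT blue, Ltf-KO red). The troponin sum is highest in WT replicate 2 and Ltf-KO replicate 3, where the endothelial sum is lowest at 5.68 TPM. The Schwann cell sum is lowest in WT replicate 1.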

How the data were processed

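RNA-seq libraries of cultured SCs, 3 WT and 3 Ltf-KO, were sequenced, and 1 table of TPM values per gene and library, to 2 decimals, was deposited by the authors. Who normalized the values, and with which program, is not given in the sources used here. The submitters' processing notes name the build GRCm39, and the aligner, the counting program and its strand setting are not given in the sources used here. TPM summed to 993650 to 994356 per library. Since TPM keeps no read totals, depth is unknown and no counting interval is given.

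Groups were taken from the genotype label. The 8 members and the gene lists were chosen with earlier results of these data known. Log2(TPM + 1) was compared by limma 3.58.1 (R 4.3.3; linear model on genotype, variance trend, two-sided, Benjamini-Hochberg over all genes tested) for the 12956 genes averaging 1 TPM or more (23.4%). Totals and shares were compared by two-sided exact permutation tests over all 20 assignments. The fit was tested on simulated data. Besides the troponins and Ltf, the genes named were, of each list, the 2 with the highest mean and the 1 with the lowest p, and the 5 with the profile nearest to total troponin among genes averaging 10 TPM or more. Alternatives were a pseudocount of 0.1, no filter, a filter at 10 TPM, median-of-ratios or quantile scaling, no variance trend, a replicate block and each library left out. Leaving Tnnc2 out of the sum, and leaving out libraries for the subunit shares, were added after the data were seen. The pair of libraries counted as the 2 highest was also picked then. Gene positions came from GENCODE M21 and promoters from RefSeq.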

Additional observations from a re-analysis of the deposited data

How the results depend on the processing

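No troponin gene passed an adjusted p of 0.05 under any of the 13 alternatives. Over all genes the count at an adjusted p under 0.05 was 0 with all libraries under every other setting, and 0 to 6 when 1 library was left out (6 without WT replicate 2, 1 without WT replicate 3, and 5, 2 and 4 without Ltf-KO replicates 1, 2 and 3). The count at an unadjusted p under 0.05, 490, became 890 with no filter and 281 with a filter at 10 TPM, where more and fewer genes were tested, and ran from 456 to 611 with a library left out. Genes higher in Ltf-KO made up 53.1% of the 490, but 40.6% of those found after quantile normalization. Of the troponin genes 0 to 1 passed an unadjusted p of 0.05 with a library left out.

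Directions depended on single libraries, and the cause was not tested. Leaving out 1 library moved the median troponin fold change from -0.043 to 0.22, the total from -69.2 to 265 TPM, the fast share from -1.70 to 0.417 percentage points, the Tnnc1 share from -1.39 to 1.04, the Tnni1 share from 0.634 to 3.02 and the Tnnt2 share from -1.96 to 1.69. The difference in the troponin T share of the total ran from -2.15 to -1.26 and that of troponin C from 0.751 to 1.72. Since these shares separated the groups without overlap, leaving out 1 library could not have changed their sign. Log2 fold changes ran from -0.017 to 0.27 for Tnnc1, -0.022 to 0.35 for Tnnc2, -0.23 to 0.17 for Tnni2, -0.11 to 0.20 for Tnnt1, -0.043 to 0.11 for Tnnt2 and -0.14 to 0.22 for Tnnt3, while Tnni1 stayed above 0, from 0.051 to 0.29. Of the other genes, they ran from -0.12 to 0.36 for Actc1, -0.00055 to 0.043 for Atp2a2, -0.080 to 0.014 for Cdk1, -0.097 to 0.19 for Igf2, -0.042 to 0.063 for Jph2, -0.0058 to 0.32 for Myl4, -0.13 to 0.26 for Mylpf, -0.026 to 0.038 for Myod1, -0.12 to 0.34 for Myog, -0.050 to 0.23 for Myom3 and -0.072 to 0.20 for Tmem182. With all libraries 4 of 215 values for 31 named genes changed sign: Tnni2 to -0.0031 and Myod1 to -0.0029 with quantile normalization, and Jph2 to -0.0071 and Myod1 to -0.0067 with median-of-ratios scaling. Without Tnnc2, which overlaps Ube2c, the total differed by 110 TPM.

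The replicate numbers gave no sign of a pairing of the libraries. Deviations of same-numbered libraries correlated at -0.041, -0.058 and -0.088 over genes, and those of differently numbered libraries at -0.026 to 0.087. The labels do not say whether same-numbered libraries were prepared together. With the replicate block 380 genes passed an unadjusted p of 0.05 and 0 an adjusted one, and no troponin gene was called. The total gave an exact permutation p of 0.75 within replicate numbers, where the smallest possible is 0.25. Of the 7 pathway lists, the slow fibre, calcium and proliferation lists gave 1 or 2 genes at an unadjusted p under 0.05 in some settings (at most 2, 1 and 1), and the thin filament, fast fibre, developmental and regulator lists 0 in each setting. The counts of the marker lists were not recomputed.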
